A study of Mus musculus with 5 samples.

Results

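RNA from 41 immediate early and heat shock genes was measured in 5 libraries of mouse adipose stem cells sorted from subcutaneous (SAT) and visceral (VAT) fat. The genes were chosen by symbol, as 30 immediate early genes and 11 chaperone genes, from 54532 genes in the deposited table of read counts. All 41 were listed once, and all 41 were among the 15920 genes with enough counts to test. By level they included some of the most abundant transcripts of these cells: per base of gene length, Fos ranked from 14 to 29 and Junb from 15 to 39 among the tested genes over the 5 libraries. No library was made without dissociation and sorting, so what those steps added to a level cannot be told apart from the level in the tissue.

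Immediate early genes are transcribed within minutes of a stimulus, without new protein synthesis, through factors such as SRF, the ETS-type ternary complex factors and CREB that are already present and are switched on by MAP kinases. Many of their products are transcription factors: FOS and JUN proteins pair into AP-1, and the EGR and KLF proteins bind DNA through zinc fingers. Others, such as the DUSP phosphatases, SOCS3 and the RNA-binding protein ZFP36, shut the response down again. Heat shock genes encode chaperones that fold proteins, and heat shock factor HSF1 raises many of them when proteins misfold. Both kinds of gene are known to respond to enzymatic digestion, handling and flow sorting of solid tissues, fat included.

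All libraries came from wild-type mice on chow, and the labels name 30 mice aged 12 to 14 weeks for the series. The fat was digested with collagenase II at 37 °C under agitation for 15 minutes. Live cells were stained and sorted on CD26 (the peptidase DPP4) and CD142 (tissue factor, encoded by F3), with CD31+ and CD45+ cells gated out, and poly(A) RNA was sequenced. VAT gave 2 libraries of CD26-CD142+ cells, here VAT library 1 and VAT library 2, and 1 library of CD26+CD142+ cells, here the VAT CD26+ library. SAT gave 2 libraries, and for these the labels conflict: the title of SAT library 1 says CD26+CD142- while its library name has CD142, and for SAT library 2 the title says CD26-CD142+ while the name has CD26. Dpp4 stood at 6.58 CPM (reads scaled to library size) in SAT library 1 and at 1007 CPM in SAT library 2, and F3 at 618 and 5.32 CPM, which goes against the titles and with the names. The 2 SAT libraries are therefore called by depot and number, and comparisons by gate were made by library name, with the titles as an alternative. The libraries named for CD26 are SAT library 2 and the VAT CD26+ library. The number that ends each library name is 1 for SAT library 1 and VAT library 1 and 2 for the other 3 libraries. In the titles of the 2 VAT CD26-CD142+ libraries it marks replicates 1 and 2. What it stands for across the other libraries is not stated, nor whether the libraries came from separate pools of mice, so the p-values measure the spread between these libraries, which may be partly technical.

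Total counts ran from 21706345 to 25357403 per library. Transcripts encoded by the mitochondrial genome took 2.83% and 4.33% of counts in the libraries numbered 1, and 0.554% to 0.633% in those numbered 2. The 12 markers of mesenchymal progenitors summed to between 23125 and 65525 CPM in every library. Other cell types summed to less: endothelial 40.4 to 329 CPM, macrophage 14.7 to 41.3, lymphocyte 1.04 to 2.03, mural 23.7 to 150.5, mesothelial 4.65 to 347, epithelial 0.301 to 67.0, Schwann 13.5 to 56.9, skeletal muscle 10.0 to 143 and erythrocyte 1.68 to 15.1 CPM. The erythrocyte sum was 8.70 and 15.1 CPM in the libraries numbered 1 and 1.68 to 3.30 CPM in the others. The endothelial sum was 329 and 310.4 CPM in the libraries named for CD26 and 40.4 to 80.4 CPM in the other 3, and the highest epithelial sum was that of SAT library 1, with at most 0.618 CPM elsewhere. The part of these cells in the levels below was not tested, and in bulk RNA fewer cells that express a gene and less RNA per cell cannot be told apart.

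Promoters of 5 of the genes are shown as description, and whether they bear on the levels was not tested. Fos and Fosl2 belong to 1 family and differed in opposite directions between libraries, Hspa1a and Hspa1b are near copies, and Hspe1 holds heat shock elements. Each is the 250 bases before the gene's start in RefSeq (GRCm38.p6, the mm10 build), written 5′ to 3′ on the gene's own strand. Capitals in the Hspe1 sequence mark the bases covered by 2 overlapping heat shock elements or by 2 overlapping matches to an ETS site, which overlap the elements in turn. The windows lie at chr12:85473640-85473889 (plus strand), chr5:32136222-32136471 (plus), chr17:34972157-34972406 (minus), chr17:34959239-34959488 (minus) and chr1:55087898-55088147 (plus). The Fosl2 start in RefSeq lies 671 bases inside that gene as placed in the count table. Its printed bases therefore lie within the counted gene and not before it.
Fos: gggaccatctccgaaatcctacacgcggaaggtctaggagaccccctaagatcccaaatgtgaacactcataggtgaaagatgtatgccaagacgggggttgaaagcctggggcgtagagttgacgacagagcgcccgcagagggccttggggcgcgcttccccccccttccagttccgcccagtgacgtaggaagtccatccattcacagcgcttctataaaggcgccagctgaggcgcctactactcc
Fosl2: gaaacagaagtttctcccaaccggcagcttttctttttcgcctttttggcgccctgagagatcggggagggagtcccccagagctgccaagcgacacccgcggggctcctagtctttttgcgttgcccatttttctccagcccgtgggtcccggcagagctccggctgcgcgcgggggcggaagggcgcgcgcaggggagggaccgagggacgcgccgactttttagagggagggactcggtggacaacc
Hspa1a: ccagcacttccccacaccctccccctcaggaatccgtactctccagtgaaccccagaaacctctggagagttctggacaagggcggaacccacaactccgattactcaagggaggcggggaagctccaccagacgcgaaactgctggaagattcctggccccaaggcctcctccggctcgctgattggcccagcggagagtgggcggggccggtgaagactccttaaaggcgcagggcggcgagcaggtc
Hspa1b: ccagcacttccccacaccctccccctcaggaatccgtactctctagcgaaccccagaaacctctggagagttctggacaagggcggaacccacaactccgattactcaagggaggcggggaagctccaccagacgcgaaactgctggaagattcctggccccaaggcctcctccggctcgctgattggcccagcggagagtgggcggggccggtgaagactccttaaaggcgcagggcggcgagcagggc
Hspe1: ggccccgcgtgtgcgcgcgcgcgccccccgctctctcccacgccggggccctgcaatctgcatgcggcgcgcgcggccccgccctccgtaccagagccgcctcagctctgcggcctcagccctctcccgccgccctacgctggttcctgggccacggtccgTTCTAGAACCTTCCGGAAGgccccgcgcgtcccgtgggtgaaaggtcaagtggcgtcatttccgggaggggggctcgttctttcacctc
The Hspa1a and Hspa1b promoters differ at 3 of the 250 bases and are 98.8% identical.

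RefSeq windows of 300 bases, from 250 before to 50 after the start, were found for 33 of the 41 genes, 25 immediate early and 8 chaperone genes. Some RefSeq starts lay far from the start in the count table: 34706 bases for Atf3, 1210 for Jund and 1025 for Zfp36. Those of Atf3 and Zfp36 lay inside the counted gene. Letters of 5 motifs were searched on both strands in these and in all 32851 windows of that table. The heat shock element, in which GAA units alternate with their reverse complement, occurred in 2 of the 8 chaperone windows (Hsph1 and Hspe1) and in 0 of the 25 immediate early windows, against 0.603% of all windows. An ETS site, searched as CCGGAAG, occurred in 2 of the 33 windows (Zfp36 and Hspe1), or 6.06% against 8.86% of all windows. An AP-1 site, searched as TGANTCA, also occurred in 2 (Zfp36l1 and Hspa5) against 7.81% of all windows. The cyclic AMP response element occurred in 2 (Btg2 and Dusp1) against 1.79%, and the CArG box, the sequence SRF binds, in 1 (Zfp36) against 1.63%. A match is a run of letters in this window and no more, and windows without a match say nothing of the factor.

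The FOS family was split by library. Fos itself, the classic immediate early partner of JUN, stood at 4589.5 and 2283 CPM in SAT libraries 1 and 2, 4979.9 and 2351 CPM in VAT libraries 1 and 2, and 1866 CPM in the VAT CD26+ library. Fosb, a close relative induced by the same stimuli, stood at 2894 and 2762 CPM in SAT libraries 1 and 2, 3372 and 4261 CPM in VAT libraries 1 and 2, and 2255 CPM in the VAT CD26+ library. Fosl2 (FRA2), a more slowly induced member, stood at 108 and 301 CPM in SAT libraries 1 and 2, 138 and 538 CPM in VAT libraries 1 and 2, and 502 CPM in the VAT CD26+ library. Fos was therefore highest in the libraries numbered 1, which did not overlap the other 3, while Fosl2 was lowest in those same 2 libraries and Fosb overlapped. Fosl1 (FRA1), also a delayed member, stood at 6.53 and 30.9 CPM in SAT libraries 1 and 2, 2.8 and 28 CPM in VAT libraries 1 and 2, and 18.2 CPM in the VAT CD26+ library. Its 2 lowest values were again those of the libraries numbered 1. On mm10, Fos (ENSMUSG00000021250) spans chr12:85473890-85477273, Fosl2 (ENSMUSG00000029135) spans chr5:32135801-32157842 and Fosl1 (ENSMUSG00000024912) spans chr19:5447703-5455945, all 3 protein-coding. Scaled by gene length and summed over the 4 FOS genes, the share of Fos was 80.3% and 66.4% in SAT libraries 1 and 2, 79.2% and 57% in VAT libraries 1 and 2, and 65.2% in the VAT CD26+ library. Fosl2 made up 0.46% and 2.13% in SAT libraries 1 and 2, 0.532% and 3.17% in VAT libraries 1 and 2, and 4.26% in the VAT CD26+ library. Fosl1 never passed 1.24% of the family, and Fosb made up the rest, between 19.1% and 38.9%.

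**Figure D1:**
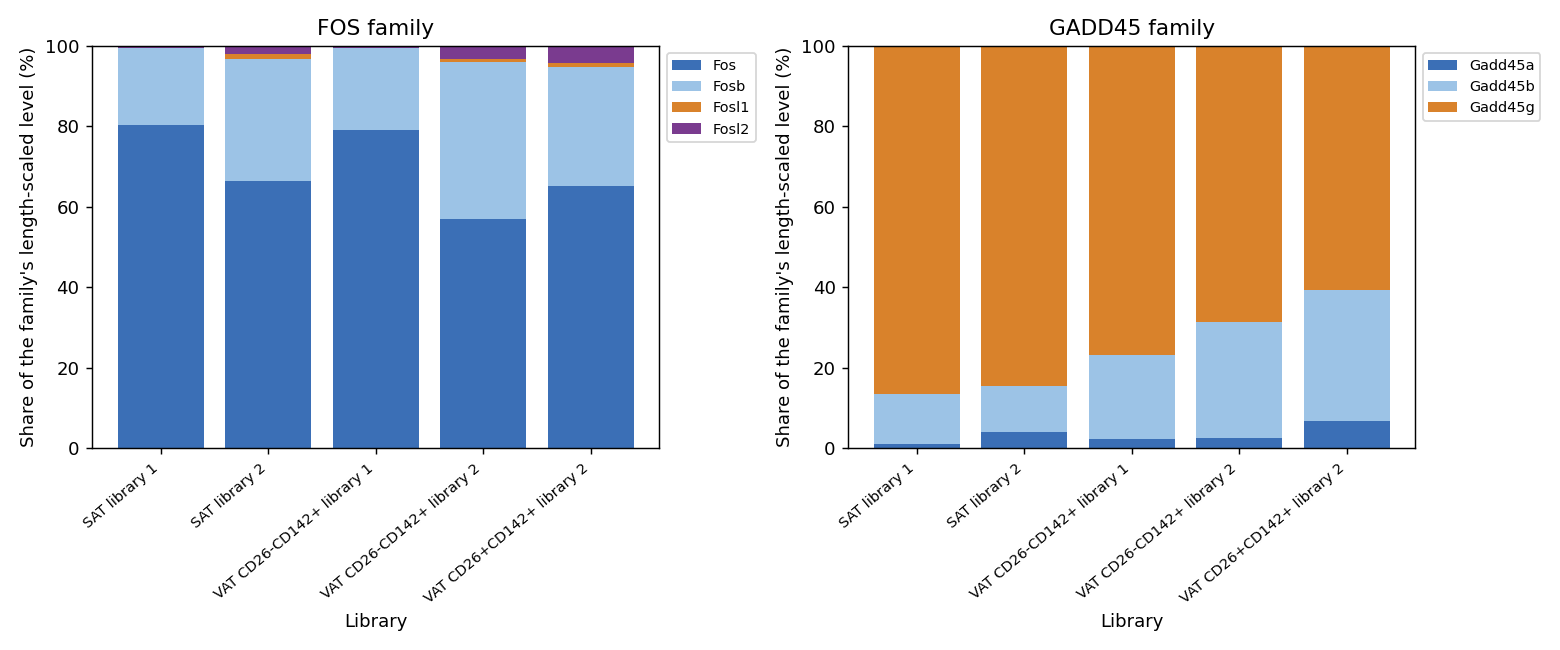
Stacked bars give each gene's share, in percent, of its family's level scaled by gene length, in each of the 5 libraries, for the 4 FOS genes (left) and the 3 GADD45 genes (right). Fos took 80.3% and 79.2% in SAT library 1 and VAT library 1 and 57.0% to 66.4% in the others; Gadd45g took from 60.7% to 86.6%.

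The JUN genes followed Fos in part. Jun stood at 4193 and 1728 CPM in SAT libraries 1 and 2, 4519 and 3037 CPM in VAT libraries 1 and 2, and 1521 CPM in the VAT CD26+ library. Junb, which can restrain JUN in the same dimers, stood at 3278 and 1835 CPM in SAT libraries 1 and 2, 4297 and 2946 CPM in VAT libraries 1 and 2, and 2148 CPM in the VAT CD26+ library. Jund, the least inducible of the 3, stood at 615 and 382 CPM in SAT libraries 1 and 2, 596 and 423 CPM in VAT libraries 1 and 2, and 235 CPM in the VAT CD26+ library. In each of the 3 genes, SAT library 1 and VAT library 1 were the highest libraries, and the VAT CD26+ library was the lowest for Jun and Jund and SAT library 2 for Junb. Per length, Junb was the largest of the 3 in every library, with 45.8% to 60.2% of their sum, and Jund the smallest, with 9.10% to 14.6%. Junb overlaps Prdx2 on the opposite strand, and whether the counting used strand was not stated; Prdx2 reached at most 184 CPM. Atf3, a stress-induced AP-1 partner, varied little, at 376, 344, 439.7, 492 and 359 CPM in the same order of libraries (SAT 1, SAT 2, VAT 1, VAT 2, VAT CD26+). Maff, a small MAF protein without an activation domain, stood at 38.3, 69.4, 63.1, 142 and 114 CPM, lowest in SAT library 1 and highest in VAT library 2.

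EGR transcripts were mostly Egr1, at 93.6% to 98.5% of the 3 genes per length. Egr1 stood at 4689.5 and 2696 CPM in SAT libraries 1 and 2, 5114 and 5493 CPM in VAT libraries 1 and 2, and 3348 CPM in the VAT CD26+ library. Egr2 stood at 101, 15.2, 120.1, 146 and 103 CPM in that order. Egr3, like Egr2 a target of the same signals, stood at 74.9, 20.5, 50.1, 116 and 91 CPM. SAT library 2 was the lowest of the 5 for all 3 EGR genes. For Egr2 the other 4 libraries lay between 101 and 146 CPM, so that SAT library 1 exceeded SAT library 2 by 6.64-fold (95% counting interval 5.92 to 7.47), counting error only.

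Krüppel-like factors did not follow Fos and Jun. Klf2 stood at 148, 268, 370.5, 308 and 424 CPM, so that both SAT libraries lay below the 3 VAT libraries. Klf4, a factor of early adipogenic differentiation among other roles, stood at 1049, 1493, 1407, 1136 and 1229 CPM, a range of 1.42-fold. Klf6 stood at 288, 488, 340.1, 419.8 and 475 CPM, with both libraries numbered 1 below the other 3.

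**Figure D2:**
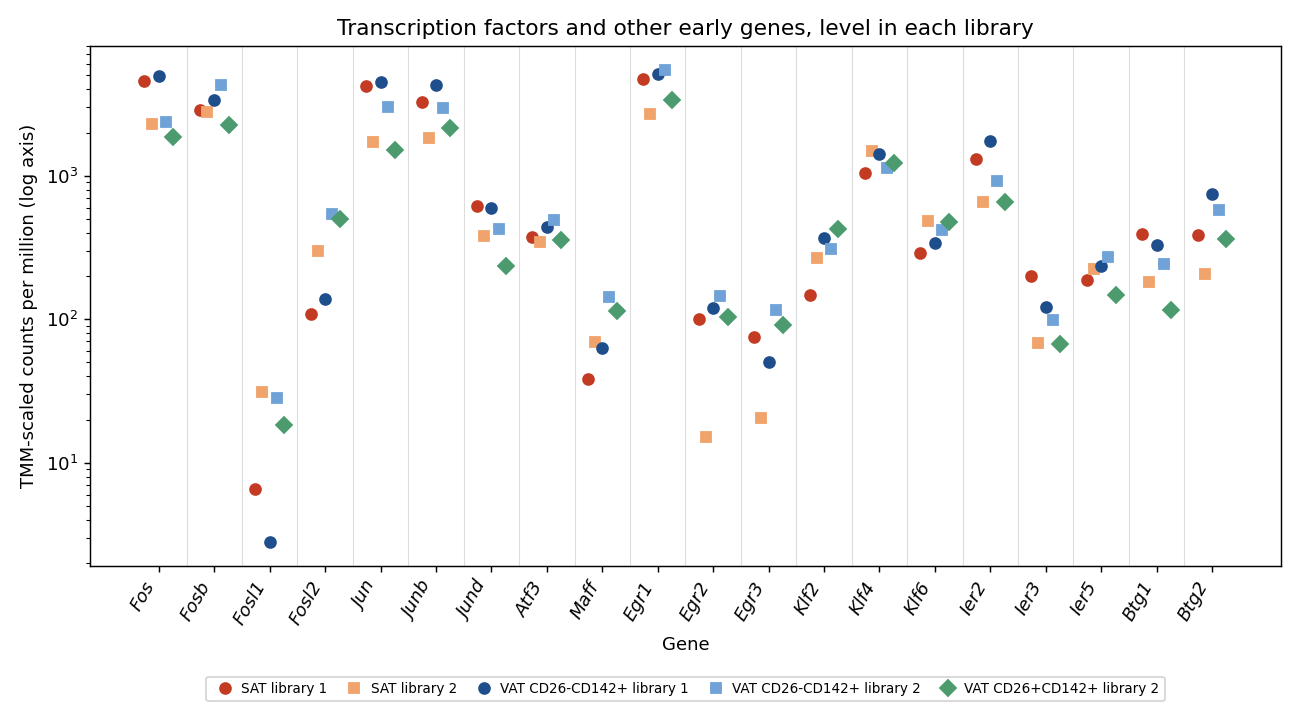
Points give the level of 20 immediate early genes (AP-1 genes, EGR, KLF, IER and BTG genes) in each library, as TMM-scaled CPM on a log axis; colours and shapes mark the 5 libraries. Fosl1 spans from 2.80 to 30.9 CPM and Atf3 from 344 to 492 CPM.

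The small early-response genes showed 2 patterns. Ier2, a nuclear regulator induced with Fos, stood at 1318 and 652 CPM in SAT libraries 1 and 2, 1734 and 915 CPM in VAT libraries 1 and 2, and 652 CPM in the VAT CD26+ library. Ier3, which modulates ERK signalling and cell survival, stood at 200.003, 68.8, 123, 98.7 and 67.2 CPM, and Ier5 at 187, 222, 234, 269.9 and 148 CPM. Ier2 and Ier3 were highest in the 2 libraries numbered 1, whereas Ier5 was lowest in the VAT CD26+ library and overlapped between numbers. Btg1 and Btg2 encode antiproliferative proteins that recruit the CCR4-NOT deadenylase. Btg1 stood at 393, 182, 328, 243 and 116 CPM, and Btg2 at 385, 206, 741, 577 and 364 CPM. The lowest value was that of the VAT CD26+ library for Btg1 and that of SAT library 2 for Btg2.

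Among growth and damage response genes, Gadd45g differed most. Gadd45g (ENSMUSG00000021453, chr13:51846678-51848468), a stress sensor that activates p38 and JNK signalling, stood at 1002 and 317 CPM in SAT libraries 1 and 2, 707 and 476 CPM in VAT libraries 1 and 2, and 171 CPM in the VAT CD26+ library. Gadd45b, its paralogue, stood at 194 and 58.1 CPM in SAT libraries 1 and 2, 261 and 272 CPM in VAT libraries 1 and 2, and 124 CPM in the VAT CD26+ library. Gadd45a, the p53 target of the family, stood at 17.4, 23, 30.0, 26.6 and 28.8 CPM. Gadd45g was thus lowest in the 2 libraries named for CD26, Gadd45b was lowest in the same 2, and Gadd45a was lowest in SAT library 1. Per length, Gadd45g made up 86.6% and 84.5% in SAT libraries 1 and 2, 76.8% and 68.5% in VAT libraries 1 and 2, and 60.7% in the VAT CD26+ library of the 3 genes. Myc, the growth-promoting transcription factor, stood at 218, 226, 261, 379.7 and 222 CPM, with VAT library 2 apart from the other 4, which lay within 218 to 261 CPM.

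The feedback inhibitors ranged, per length, from Dusp1, Zfp36 and Socs3, among the more abundant of the 41 genes, to Dusp2, the least abundant. Dusp1, a nuclear phosphatase of p38, JNK and ERK, stood at 1657 and 1919 CPM in SAT libraries 1 and 2, 2803 and 1679 CPM in VAT libraries 1 and 2, and 1754 CPM in the VAT CD26+ library. Dusp6, a cytoplasmic ERK phosphatase induced by ERK, stood at 113 and 26.3 CPM in SAT libraries 1 and 2, 231 and 117 CPM in VAT libraries 1 and 2, and 62.6 CPM in the VAT CD26+ library. Socs3, an inhibitor of cytokine receptors that signal through STAT3, stood at 1721 and 957 CPM in SAT libraries 1 and 2, 2124 and 2394 CPM in VAT libraries 1 and 2, and 1253 CPM in the VAT CD26+ library. Dusp6 was lowest in the 2 libraries named for CD26, as was Socs3, while Dusp1 was highest in VAT library 1 and lowest in SAT library 1. Zfp36 (tristetraprolin), which destabilises AU-rich messenger RNAs, stood at 2371, 1163, 2735, 2174 and 1180.0 CPM, and its paralogue Zfp36l1 at 213, 350.4, 249, 329 and 202 CPM. Zfp36 was also lowest in the 2 libraries named for CD26, and Zfp36l1 was highest in SAT library 2. Dusp2, a phosphatase best known from immune cells, was the one gene of the 41 below 1 CPM in every library, between 0.275 and 0.992 CPM.

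In the HSP70 system, the constitutive Hspa8 (HSC70) was the steadiest of the 41 genes, at 1483 and 1392 CPM in SAT libraries 1 and 2, 1405 and 1439 CPM in VAT libraries 1 and 2, and 1231 CPM in the VAT CD26+ library, a range of 1.20-fold. Inducible Hspa1b, which with Hspa1a encodes HSP70, stood at 219 and 405 CPM in SAT libraries 1 and 2, 325 and 641 CPM in VAT libraries 1 and 2, and 401 CPM in the VAT CD26+ library. Hspa1a stood at 91.7, 163, 123, 156 and 94.5 CPM. Both were lowest in SAT library 1, and Hspa1b was lowest in the 2 libraries numbered 1. Of the 100-base windows of their transcripts, 47.1% for Hspa1a and 49.9% for Hspa1b also occur in the other, so reads may have been split between them or dropped and their levels are uncertain; 0 such windows occur in Hspa8. Per length, Hspa8 made up 76% and 61.9% in SAT libraries 1 and 2, 67.5% and 54.3% in VAT libraries 1 and 2, and 62.1% in the VAT CD26+ library of the 3 genes.

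Hspa5 (BiP), the HSP70 of the endoplasmic reticulum, stood at 1582, 1772, 1611, 2367 and 1763 CPM, highest in VAT library 2. Dnajb1, the HSP40 partner of inducible HSP70, stood at 172, 101, 232, 150.4 and 107 CPM, with the libraries numbered 1 above the others. Hsph1 (HSP110), a nucleotide exchange factor for HSP70, stood at 69.4, 75.9, 34.8, 48.8 and 51.4 CPM, with both SAT libraries above the 3 VAT libraries. Hsph1 carries a heat shock element in its promoter window, and no such run of letters was found in that of Dnajb1. For HSP90, the inducible Hsp90aa1 stood at 233, 390.1, 227, 309 and 289 CPM and the constitutive Hsp90ab1 at 1119, 1189, 796, 726 and 934 CPM. Hsp90ab1 made up 75.5% to 86.3% of the pair per length, the most in SAT library 1. Hsp90aa1 was lower in both libraries numbered 1 than in the other 3, and Hsp90ab1 was higher in both SAT libraries than in the 3 VAT libraries.

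The small heat shock protein Hspb1 (HSP27) stood at 160.2, 286, 281, 356 and 360.0 CPM, lowest in SAT library 1. Hspe1 and Hspd1 encode the mitochondrial HSP10 and HSP60, which work together and lie head to head on opposite strands of chromosome 1. Hspe1 stood at 126, 75.6, 93.3, 65.7 and 57.9 CPM, and Hspd1 at 142, 144, 114, 110.1 and 107 CPM. Hspe1 was higher in both libraries numbered 1 than in the other 3, and Hspd1 differed by at most 1.34-fold. The 2 genes overlap in the annotation, so without strand their shared reads cannot be told apart.

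**Figure D3:**
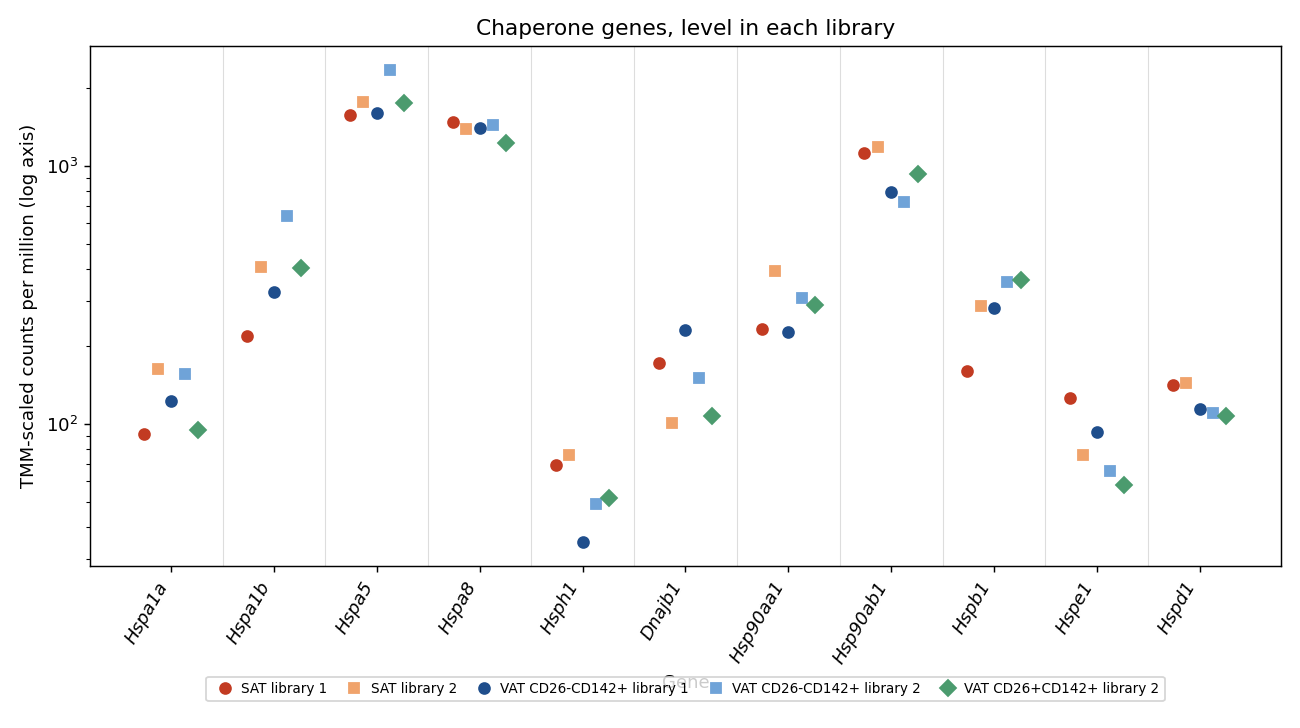
Points give the level of the 11 chaperone genes in each library, as TMM-scaled CPM on a log axis; colours and shapes mark the 5 libraries. Hspa8 lies between 1231 and 1483 CPM, while Hspa1b spans from 219 to 641 CPM.

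The number in the library name set apart 2 of the 41 genes by edgeR's quasi-likelihood test with Benjamini-Hochberg adjustment, with depot in the model. Fosl1 was lower in the libraries numbered 1, with a log2 difference of -2.68 (SE 0.34, adjusted p = 0.044), and Fosl2 likewise, at -1.73 (SE 0.20, adjusted p = 0.044). Both are FRA proteins that replace FOS in AP-1 late in a response. Fosl1 averaged 4.67 ± 2.64 CPM (SD, n = 2) in number 1 and 25.7 ± 6.67 CPM (SD, n = 3) in number 2; Fosl2 averaged 123 ± 20.9 CPM (SD, n = 2) and 447 ± 128 CPM (SD, n = 3). Of all 15920 genes, 5.26% passed in either direction and 3.08% were lower in number 1, so the 2 of 41 (4.88%) were close to the background.

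At an unadjusted p under 0.05, 9 of the 41 genes were higher in number 1 (22%, against 14.6% of all genes) and 7 were lower (17.1%, against 17.1%). The 9 were Fos, Jun, Junb, Ier2, Ier3, Btg2, Dusp6, Dnajb1 and Hspe1. After adjustment DESeq2 passed 14 of the 41, 9 higher and 5 lower, beside 22.2% of all genes. The log2 difference was 1.14 (SE 0.25, adjusted p = 0.0737) for Fos, 1.68 (SE 0.36, adjusted p = 0.0737) for Dusp6 and 0.66 (SE 0.13, adjusted p = 0.0584) for Hspe1. For Maff, with the opposite sign, it was -0.95 (SE 0.16, adjusted p = 0.0513). The values of the 2 libraries numbered 1 lay above all others in 11 of the 41 genes (26.8%, against 24.2% of all genes) and below all others in 8 (19.5%, against 25.1%). The median log2 difference was 0.40 for the 30 immediate early genes and -0.27 for the 11 chaperone genes, beside 0.00 over all tested genes. The mitochondrial share of counts and the erythrocyte sum also differed by number, and their part was not tested. With the mitochondrially encoded genes left out, the same 2 genes, Fosl1 and Fosl2, passed. That step leaves the counts of all other genes as they were, so it cannot show what lay behind the share.

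Both libraries numbered 1 are named for CD142, and only VAT library 2 breaks the tie between number and gate. With CD26 by library name as a further term, 0 of 15920 genes passed the edgeR test (3294 at an unadjusted p under 0.05), and Fosl1 and Fosl2 both had an adjusted p of 0.154, while their log2 differences were -3.19 and -1.87. Leaving out 1 library also ended both calls in 4 of 5 cases, with differences of like size. Without either SAT library, the depot term takes up the other one. Those 2 cases therefore both compare VAT library 1 with the other VAT libraries and are not separate checks. Without SAT library 1, Fosl1 was at -3.04 and Fosl2 at -1.92 (adjusted p = 0.313 for each), and without VAT library 1 at -2.23 and -1.47 (adjusted p = 0.244). Without SAT library 2 they were at -3.04 and -1.92 (adjusted p = 0.323), and without the VAT CD26+ library at -2.78 and -1.73 (adjusted p = 0.160). Without VAT library 2 number and gate cannot be told apart, and 12 of the 41 genes passed, 9 higher and 3 lower in number 1, beside 13.2% of all genes.

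**Figure D4:**
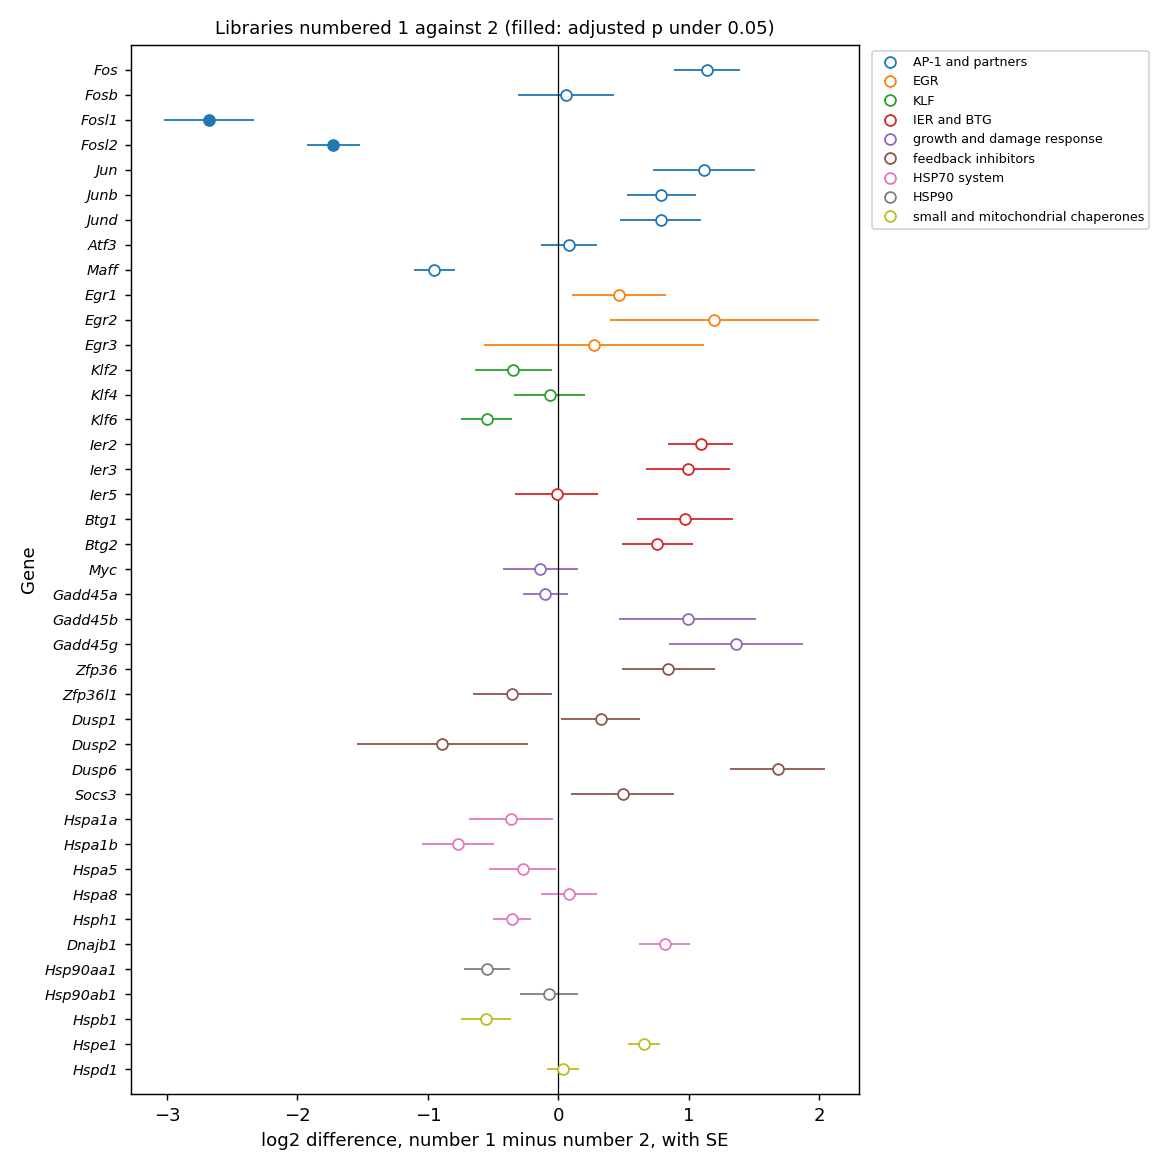
Points give the log2 difference between libraries numbered 1 and 2, with depot in the edgeR model, for the 41 genes; bars are 1 SE, colours mark the gene's role, and filled points passed an adjusted p of 0.05. Fosl1 at -2.68 and Fosl2 at -1.73 are the filled points; Fos at 1.14 is open.

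Libraries of one depot and gate show how far that number goes without a change of gate. Between VAT libraries 1 and 2, both CD26-CD142+, Fos was 2.12-fold (95% counting interval 2.1 to 2.14) higher in library 1, and Fosl1 was 10.0-fold (95% counting interval 7.7 to 13.3) and Fosl2 3.91-fold (95% counting interval 3.76 to 4.07) higher in library 2. Maff and Egr3 were also at least 2-fold higher in library 2, counted after adding 1 CPM to each value and where the larger value was 10 CPM or more. By that rule 1 of 40 measured genes was higher in library 1 (against 3% of 9448 genes) and 4 were lower (against 6.68%). Dusp2 did not reach 10 CPM. Between the 2 SAT libraries, which differ in both number and gate, 11 of 40 genes (27.5%) were at least 2-fold higher in library 1, against 11.3% of 9689 genes, and 2, Fosl1 and Fosl2, were lower, against 11.2%. The 11 were Fos, Jun, Egr2, Egr3, Ier2, Ier3, Btg1, Zfp36, Dusp6, Gadd45b and Gadd45g. These pairs hold 1 library a side and have no replicate check.

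The VAT CD26+ library was compared with the 2 VAT CD26-CD142+ libraries to ask how the gate bears on these genes within a depot. The VAT CD26+ library and VAT library 2 are numbered 2 and VAT library 1 is numbered 1, so gate and number are partly mixed here. Of the 41 genes, 0 passed the edgeR test, beside 1.6% of all genes (143 higher and 111 lower in CD26+). At an unadjusted p under 0.05, 5 were lower in CD26+ (12.2%, against 4.45% of all genes) and 0 were higher (against 3.93%); DESeq2 passed 1, Gadd45g, beside 2.24% of all genes, so 1 of 41 is close to the background. The log2 difference was -1.79 (SE 0.58, adjusted p = 0.211) for Gadd45g, -1.48 (SE 0.55, adjusted p = 0.35) for Dusp6 and -1.31 (SE 0.62, adjusted p = 0.594) for Jun. For Btg1 it was -1.30 (SE 0.53, adjusted p = 0.437) and for Gadd45b -1.10 (SE 0.51, adjusted p = 0.573). All 5 were lower in CD26+ than in each of the CD26-CD142+ libraries.

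The VAT CD26+ value lay below both CD26-CD142+ values in 25 of the 41 genes (61.0%, against 33.3% of all genes) and above both in 6 (14.6%, against 31.3%). Those 6 were Klf2, Klf6, Dusp2, Hsph1, Hsp90ab1 and Hspb1. The median log2 difference was -0.69 over the immediate early genes and -0.17 over the chaperones, beside -0.03 over all genes. All 5 IER and BTG genes and 5 of the 6 feedback inhibitors had a negative difference, whereas both HSP90 genes had a positive one. Of all 15920 genes, 8355 had a negative difference. The endothelial sum was 310.4 CPM in the VAT CD26+ library and 80.4 and 77.8 CPM in VAT libraries 1 and 2, and its part was not tested. The mesothelial sum was 347 CPM in the VAT CD26+ library and 115.8 and 170.9 CPM in the others, with 5 of 10 mesothelial markers passing, and the mural sum was 23.7 CPM against 77.4 and 107 CPM, with 2 of 8 mural markers passing; their part was not tested. This comparison has 1 residual degree of freedom, which is the difference between VAT libraries 1 and 2 and so also one of number. Differences from each of those libraries alone were taken after adding 1 CPM. Against VAT library 1 and VAT library 2, the log2 difference was -1.42 and -0.33 for Fos and -1.41 and -0.49 for Ier2. It was -1.07 and -1.12 for Gadd45b and -0.76 and -0.93 for Socs3.

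**Figure D5:**
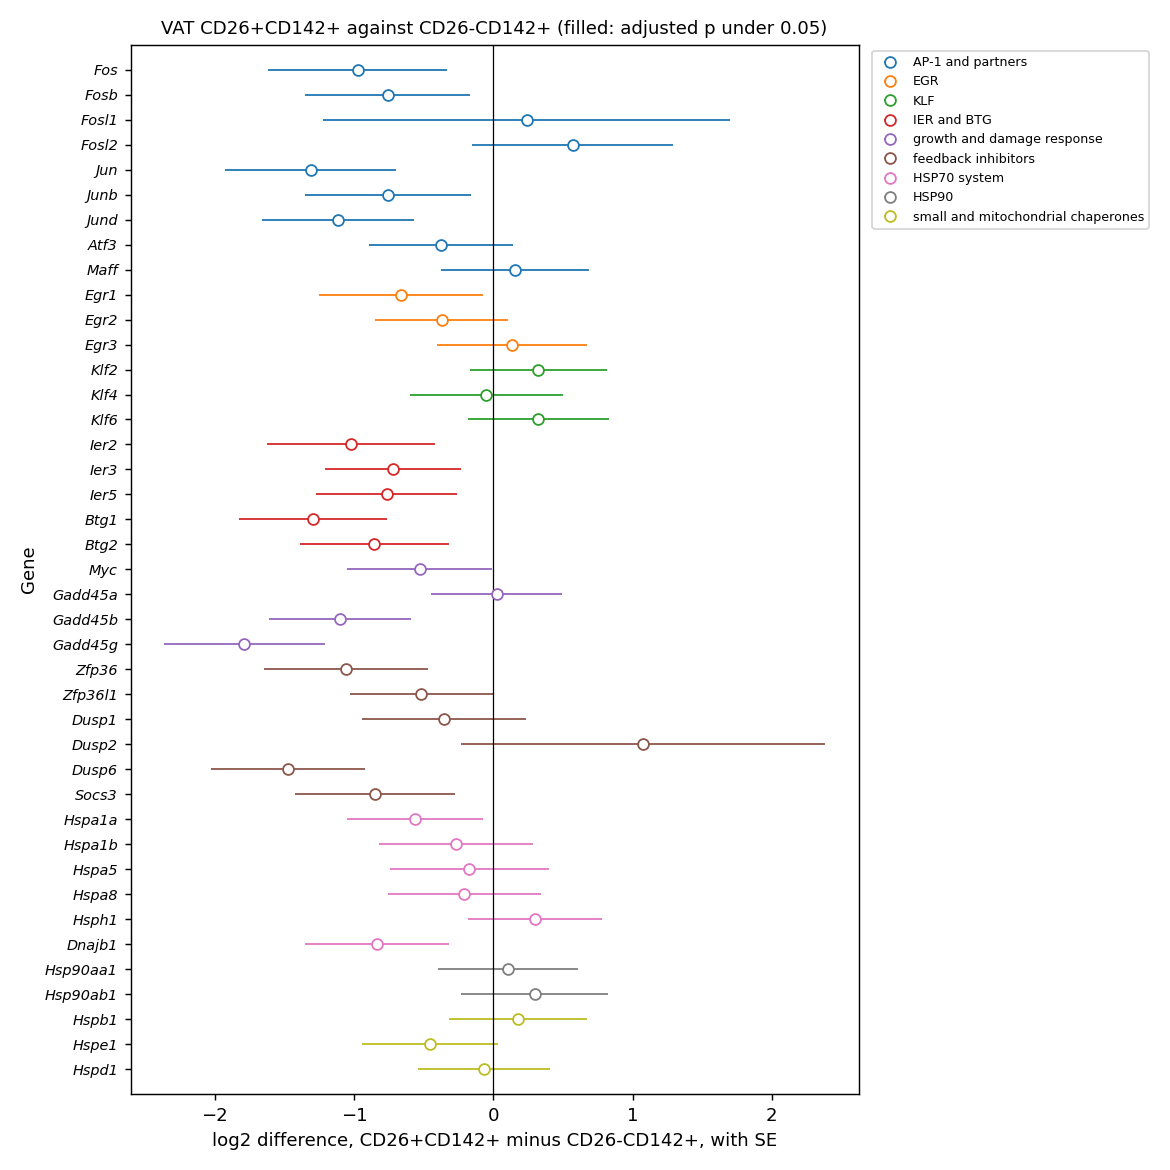
Points give the log2 difference between the VAT CD26+CD142+ library and the 2 VAT CD26-CD142+ libraries for the 41 genes; bars are 1 SE, colours mark the role, and no point is filled because none passed an adjusted p of 0.05. Gadd45g lies farthest left at -1.79, and 29 of the 41 points lie below 0, beside 8355 of all 15920 genes.

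Across both depots, with CD26 taken from the library names, 0 of the 41 genes passed the edgeR test, beside 0.597% of all genes. At an unadjusted p under 0.05, 12 genes were lower in the libraries named for CD26 (29.3%, against 9.47% of all genes) and 0 were higher (against 6.56%); DESeq2 passed 10, all lower, beside 8.4% of all genes. The 12 were Jun, Jund, Ier2, Ier3, Btg1, Btg2, Zfp36, Dusp6, Socs3, Gadd45b, Gadd45g and Dnajb1. The log2 difference was -1.74 (SE 0.39, adjusted p = 0.136) for Dusp6, -1.73 (SE 0.31, adjusted p = 0.104) for Gadd45g and -1.37 (SE 0.27, adjusted p = 0.118) for Gadd45b. In 18 of the 41 genes (43.9%, against 17.3% of all genes) both libraries named for CD26 lay below the other 3, and in 2, Klf6 and Dusp2, above them (against 16.8%). The immediate early genes had a median log2 difference of -0.69 and the chaperones of 0.05, beside -0.01 over all genes. The mural sum was 42.9 and 23.7 CPM in the libraries named for CD26 and 77.4 to 150.5 CPM in the other 3. Of 8 mural markers, 1 (Abcc9) passed. The endothelial sum was 329 and 310.4 CPM in the libraries named for CD26 and 40.4 to 80.4 CPM in the other 3. Of 10 endothelial markers, 0 passed. The part of either cell type was not tested. With library number as a further term 0 of 15920 genes passed (1592 at an unadjusted p under 0.05), and by title instead of name 0 passed (140 unadjusted). The number term moved the log2 difference of Dusp6 to -0.96, of Ier2 from -1.02 to -0.39 and of Dnajb1 from -0.81 to -0.40. It moved Gadd45g less, to -1.37, and Gadd45b to -1.29, while Socs3 went from -0.85 to -0.96. By edgeR with that term, 9 of the 41 genes were lower and 0 higher at an unadjusted p under 0.05. The 1592 of all 15920 genes cover both directions and were not split. The median log2 difference over the 41 genes was -0.41 with the term and -0.28 without it. Without VAT library 2, where gate and number coincide, 12 of the 41 genes passed, 3 higher and 9 lower, beside 13.2% of all genes; they include Fosl1, Fosl2, Maff and Hspe1, which are not among the 12 above. Without the VAT CD26+ library 1 passed, Egr2, beside 3.39% of all genes. This comparison shares libraries with the VAT comparison and with that by number, so the 3 are not independent.

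Whether the gate difference was unlike in the 2 depots was asked by a test of that difference itself, in the fit with 4 groups. In SAT it is SAT library 2 against SAT library 1, with 1 library a side. These also differ in number, so gate, number and single library cannot be told apart there. The fit has 1 residual degree of freedom, from VAT libraries 1 and 2. Of all genes 40 passed (0.251%), and of the 41 genes 0 passed. At an unadjusted p under 0.05 there were 2, Egr2 and Egr3 (4.88%, against 4.47% of all genes). For Egr2 the gate difference was lower in SAT than in VAT by a log2 value of -2.36 (adjusted p = 0.354), and for Egr3 by -2.01 (adjusted p = 0.925). Both were low in SAT library 2 and not in the VAT CD26+ library, as the values per library show.

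Between depots the values of most of the 41 genes overlapped. Of the 41, 0 passed the edgeR test of SAT against VAT, beside 0.0503% of all genes (8 genes), and DESeq2 passed 0. At an unadjusted p under 0.05, 0 genes were lower in SAT (against 3.54% of all genes) and 1 was higher (against 3.22%), Hsph1, with means of 72.6 ± 4.6 CPM (SD, n = 2) for SAT against 45 ± 8.94 CPM (SD, n = 3) for VAT, and a log2 difference of 0.69 (SE 0.25, adjusted p = 0.673). SAT did not overlap VAT in 6 genes: Hsph1, Hsp90ab1 and Hspd1 were higher in both SAT libraries (7.32%, against 9.64% of all genes), and Egr2, Klf2 and Gadd45a were lower (7.32%, against 10.2%). With library number as a term in the edgeR model, 10 of the 41 genes had an unadjusted p under 0.05. Of these 3 were higher and 7 lower in SAT. In that fit 1865 of all 15920 genes were under 0.05 in either direction, and 0 of the 41 passed after adjustment. The 1865 were not split by direction, so the higher and lower counts have no background of their own. The median log2 difference over the 41 genes was -0.19, beside 0.01 over all genes; it was 0.01 without VAT library 1, -0.08 without VAT library 2, -0.33 without SAT library 1 and -0.35 without the VAT CD26+ library. The Fos values of the 2 depots overlapped widely, at 3436 ± 1631 CPM (SD, n = 2) and 3066 ± 1675 CPM (SD, n = 3).

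Genes around this set were taken from lists of related genes. Of 15 genes upstream of the immediate early response (SRF, its cofactors, ETS-type factors, CREB and MAP kinases), 1 passed by number and 0 in the other 3 comparisons. That gene was Elk4, a ternary complex factor, which was higher in number 1 by 0.88 on the log2 scale (adjusted p = 0.044). By number 5.26% of all genes passed, so 1 of 15 is close to the background. Of 37 other immediate early genes tested, 0 passed in any of the 4 comparisons. Spry4, an inhibitor of receptor tyrosine kinase signalling, had the largest difference of them between VAT gates, a log2 value of -2.18 (adjusted p = 0.0549). It stood at 42.9 and 3.07 CPM in SAT libraries 1 and 2, 72.5 and 65.5 CPM in VAT libraries 1 and 2 and 15.2 CPM in the VAT CD26+ library, lowest in the 2 libraries named for CD26. Between VAT gates 24 of the 37 genes had a negative log2 difference and 13 a positive one. Of those reaching 10 CPM in a library, Plk2 had the largest positive value, 0.72.

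Of 36 regulators and co-chaperones of the heat shock response, 1 passed by number: Ptges3, the HSP90 co-chaperone p23, was higher in number 1 by 0.83 on the log2 scale (adjusted p = 0.044). Of 6 mitochondrial chaperones and proteases, Clpp, a matrix protease subunit, was higher by 0.96 (adjusted p = 0.0452). Of 22 tested genes of the unfolded protein response of the endoplasmic reticulum, Ern1, the sensor IRE1, fell by 1.39 on the log2 scale in number 1 (adjusted p = 0.044). In these 3 lists 0 genes passed by depot, by VAT gate or by CD26 gate. Their counts by number, 1 of 36, 1 of 6 and 1 of 22, stand beside 5.26% of all genes.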

How the data were processed

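RNA from 5 libraries of sorted adipose stem cells was sequenced. The authors deposited one table of raw counts, whole numbers per gene that had not been normalized, with another column, gene length in bases. Per the submitters' processing notes, CASAVA, HISAT2 2.0.5, featureCounts 1.5.0-p3 and the mm10 build were used; the annotation and the strand setting are not given in the sources used here. The members and lists were chosen with earlier results of these data known. Counts were scaled by TMM in edgeR 4.0.16 (R 4.3.3, limma 3.58.1) and are given as CPM. Genes with too few counts were filtered (filterByExpr, minimum count 10, by depot), which left 15920. The 4 comparisons used edgeR's quasi-likelihood F test, robust, with Benjamini-Hochberg adjustment over those genes at 0.05; the fits of the VAT gate and of its difference between depots had 4 groups. The test of that difference was added after the values were seen. The SE of a log2 difference is its size divided by the square root of F. Ratios of single libraries carry exact conditional 95% intervals for counting error only. Members at or above 50 CPM on average or past the threshold are given in full, and others by range. Scripts were tested on simulated data. Same-numbered libraries deviated from their depot means with a correlation of 0.66 (SAT and VAT library 1), 0.02 and 0.65 (SAT library 2 with VAT library 2 and the VAT CD26+ library). The deviations of the 2 SAT libraries mirror each other, so these values are not separate. The 2 SAT libraries also differ in gate, so the values cannot show whether the numbers pair the libraries. Alternatives were the DESeq2 1.42.0 size factors and test, no filter, mitochondrially encoded genes left out, further terms, titles for names, other pseudocounts and leaving out libraries. RefSeq supplied the promoter windows; sequence of genes without a window was not used here.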

Additional observations from a re-analysis of the deposited data

How the results depend on the processing

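Over the 4 tested comparisons, DESeq2's size factors and leaving out the mitochondrially encoded genes kept each count of called genes within 1.5 times and changed no call among the 41 genes. By depot, 8 genes passed by edgeR; the count was 70 with no filter, 465 with DESeq2, 5 with library number as a replicate block, 83 with CD26 by library name as a term and 0 to 17 when each library was left out in turn (578 to 1005 at an unadjusted p under 0.05 where it was 0). For the VAT gate, 254 genes passed; the count was 491 with no filter and 356 to 383 without either SAT library, and DESeq2 called 1 of the 41 genes (Gadd45g). For the CD26 gate by name, 95 passed; the counts of all genes and of the 41 were 775 and 3 with no filter, 1338 and 10 with DESeq2, 0 and 0 with library number as a replicate block (1592 unadjusted) and 0 by title (140 unadjusted). Left out in turn, libraries gave 138 to 2034 genes and 0 to 12 of the 41. By number, 837 genes and 2 of the 41 passed; the counts were 1720 and 5 with no filter, 3535 and 14 with DESeq2, 0 and 0 with the CD26 term, and 0 to 2034 and 0 to 12 with libraries left out (2371 to 3583 genes at an unadjusted p under 0.05 where it was 0; 3294 with the CD26 term). Between the VAT CD26-CD142+ libraries, 914 genes passed 2-fold, and 603 with a pseudocount of 5 CPM. By title, Ier3 (0.30), Dusp6 (0.16) and Gadd45b (0.19) turned sign on the log2 scale, without passing. The cause of these changes was not tested, except that without VAT library 2 number and gate split the libraries alike. The numbers do not pair the libraries by label. The VAT gate without a VAT library could not be tested, as no residual degree of freedom remained; the differences from each CD26-CD142+ library alone kept their sign for Gadd45g, Dusp6, Jun, Btg1 and Gadd45b. The design has 1 to 3 residual degrees of freedom, and Dusp2, under 1 CPM, is limited by depth.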
